A study of Mus musculus with 4 samples.

Results

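The genes described here build the junctions and the keratin skeleton of epithelium. They are 12 claudins, 8 other tight junction genes, 7 adherens junction genes, 8 desmosome and plakin genes, 7 keratins and 6 genes that regulate epithelial identity or traffic, chosen by name. Of the 48 genes, 44 were among the 19991 genes of the TPM table (transcript counts over gene length, scaled to the same total in every library), and these 44 also passed the filter on low counts. The other 4, Cldn6, Krt5, Krt13 and Krt15, had between 0 and 16 counts per library and were not tested. RNA came from whole mouse uterus on gestational day 4. The 2 knockout libraries came from Prss29Cre/Cre;Pgrf/f females, called Pgr gecKO in the labels. These females are homozygous for a Cre allele of Prss29, a protease gene that glands of the uterus express, and carry floxed Pgr, the gene of the progesterone receptor. The 2 control libraries came from uteri labelled control WT, collected on the same day. The labels used here give no strain or age and do not say whether a library holds RNA of a single animal, so p-values measure only the spread between these libraries, which may be technical. Effects of Cre, of the altered Prss29 locus and of the floxed Pgr allele cannot be told apart in this design.

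Epithelial cells are held together by a stack of junctions. Tight junctions seal the space between cells near the lumen, with claudins forming either seals or selective pores. Adherens junctions couple neighbouring cells through E-cadherin and its catenins to actin, and desmosomes couple them to keratin filaments. Around implantation the uterine epithelium is known to remodel its junctions and lose some of its polarity under progesterone, so that the blastocyst can attach.

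The libraries held 31901278 and 29932153 counts in knockout replicates 1 and 2 and 35149834 and 33843256 counts in control replicates 1 and 2. Values per library are given in that order of replicates throughout, in CPM (counts scaled to the library size after correction by the trimmed mean of M values), unless TPM is named. Fold changes are knockout over control. In whole uterus Pgr itself stood at 130.1 and 146.2 CPM in the knockout libraries and 140.5 and 138.6 CPM in the control libraries (log2 fold change −0.015, 95% interval −0.52 to 0.49). Stroma and muscle also transcribe Pgr, so its level in whole uterus is no check of a deletion limited to glands. Prss29 had 0 and 0 counts in the knockout libraries, against 1524 and 190 counts in the control libraries. The tissue label held up, since markers of luminal epithelium, stroma and smooth muscle were present in every library. The libraries differed within a genotype in their make-up. Summed over 6 smooth muscle genes, the level was 6522 and 9822 TPM in the knockout libraries, against 7955 and 2494 TPM in the control libraries. Summed over 7 luminal epithelium genes it was 1061 and 934 TPM in the knockout libraries, against 733 and 1280 TPM in the control libraries. Markers of gland epithelium summed to 133 and 147 TPM in the knockout libraries, against 449 and 392.2 TPM in the control libraries. Of these 8 markers, 7 were lower in CPM in both knockout libraries than in both controls, against 13.1% of all genes tested. Foxa2 was among them only narrowly, at 13.51 and 5.49 CPM in the knockout libraries, against 13.53 and 15.7 CPM in the control libraries. In TPM Foxa2 overlapped, at 18.8 and 6.63 TPM in the knockout libraries, against 18.3 and 21.2 TPM in the control libraries. The remaining marker, Cxcl15, overlapped and had a log2 fold change of 0.67. Prss29 itself was among the 7. Leukocyte markers summed to 427 and 484 TPM in the knockout libraries, against 545 and 946 TPM in the control libraries. Of the 4 tested, 1 (Cd68) was lower without overlap, to be set beside the same 13.1%. Most of the leukocyte sum was Lyz2, at 382 and 449 TPM in the knockout libraries, against 489 and 873 TPM in the control libraries. In CPM Lyz2 overlapped, at 152 and 206 CPM in the knockout libraries, against 201 and 358 CPM in the control libraries. The marker lists were chosen with earlier results of these data known. In whole tissue, fewer cells of a type and less RNA per cell cannot be told apart.

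The mean level of the 44 genes ranged from 2.47 TPM for Cldn22 to 1089 TPM for Cldn3, and none passed the test between the genotypes. In edgeR's quasi-likelihood test with Benjamini-Hochberg adjustment over 20950 genes, 0 of the 44 members had an adjusted p under 0.05, against 1 gene or 0.00477% of all genes tested. DESeq2 and limma-voom also called 0 members, as did every other setting tried. At an unadjusted p under 0.05, 1 member was lower in knockout libraries (Cldn1) and 2 were higher (Cldn2 and Dsc2), against 1.79% of all genes lower and 1.22% higher, 3.01% in all. The adjusted p of each of these genes was 1.0. When each library was left out in turn, the log2 fold change of Cldn1 ran from −1.62 to −0.56. That of Cldn2 ran from 1.0 to 1.04 and that of Dsc2 from 0.64 to 0.79. The median log2 fold change was −0.052 over the members and 0.006 over all genes tested, with 27 of 44 members below 0. Without control 2 the median of the members was 0.078, and the medians given below for claudins, other tight junction genes and epithelial regulators were 0.117, 0.108 and 0.035. Without knockout 1 the median of the members was −0.175, and that of the desmosome and plakin genes was −0.256. The last was −0.019 without control 1, where the median of the other tight junction genes was −0.277. The 95% interval lay within 1 log2 unit of 0 on both sides for 32 of 44 members, so that a 2-fold change in either direction lay outside the interval for these genes.

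**Figure D1:**
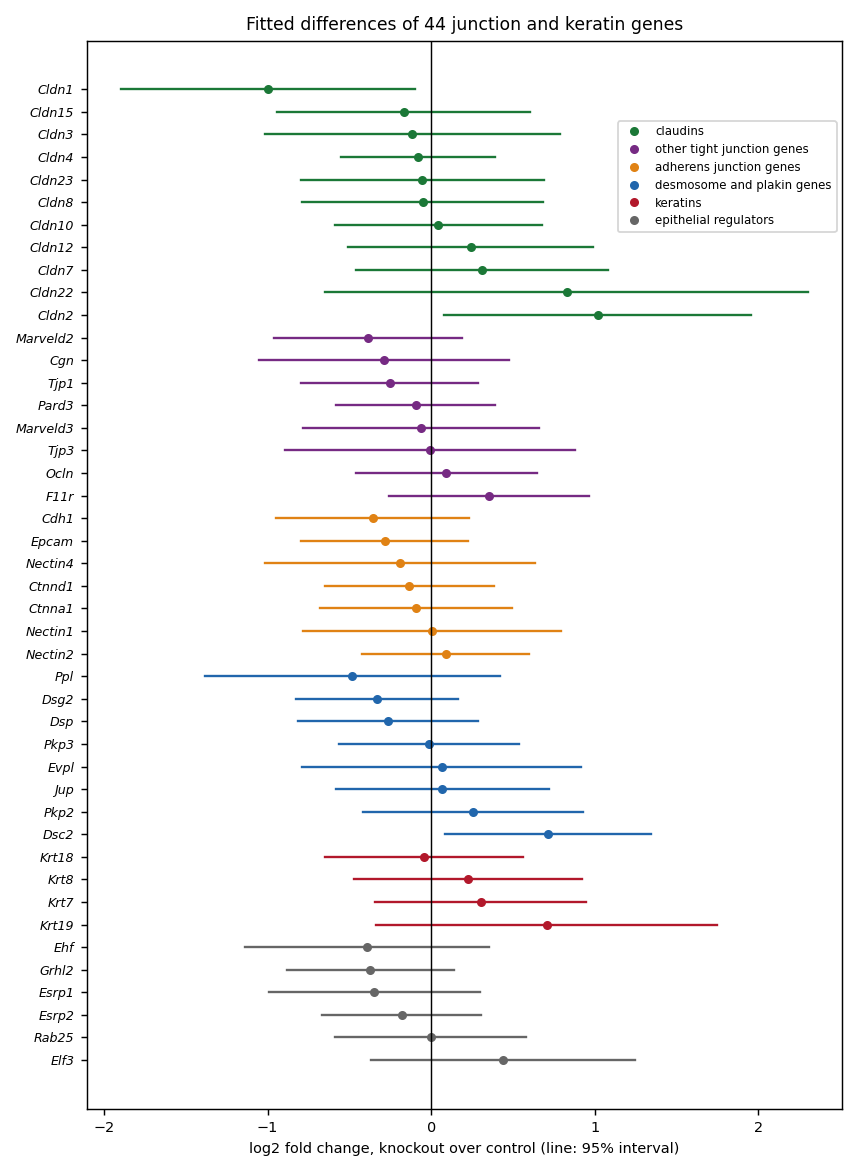
Fitted log2 fold change of each of the 44 tested genes, knockout over control, with its 95% interval from edgeR (2 libraries per group), coloured by class. The intervals of Cldn1, Cldn2 and Dsc2 leave out 0, and those of the other 41 genes include it.

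In 14 of the 44 members (31.8%) the libraries of the genotypes did not overlap, against 25.3% of all genes tested. Both knockout libraries lay below both controls in 10 members (22.7%), against 13.1% of all genes, and above them in 4 members (9.09%), against 12.2% of all genes. The 10 were Cldn1, Cldn4, Tjp1, Marveld2, Cdh1, Ctnnd1, Epcam, Dsg2, Esrp2 and Grhl2, and the 4 were Cldn2, Cldn22, F11r and Dsc2. Of the 14, Cldn4 and Ctnnd1 overlapped when read in TPM, and Pkp2 then stood higher without overlap. In 35 of 44 members (79.5%) the gap between libraries of the same genotype was wider than the gap between the genotype means, as it was in 84.4% of all genes tested.

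Claudins, the transmembrane proteins that decide what a tight junction lets through, were dominated by a few members, and 6 of the 11 tested lay below 0 on the log2 fold change scale (median −0.051). Cldn3, a sealing claudin, averaged 1089 TPM over the 4 libraries, followed by Cldn7 at 215 TPM and Cldn4, another sealing claudin, at 134 TPM. Cldn23 at 68.4 TPM, Cldn10 at 47.5 TPM and Cldn12 at 21.3 TPM came next. Cldn8, Cldn1, Cldn15, Cldn2 and Cldn22 lay between 16.9 and 2.47 TPM. Cldn3 made up 72.1% and 56.9% of the summed claudin TPM in the knockout libraries, against 61.1% and 73.1% in the control libraries. Cldn7 made up 9.59% and 21.8% in the knockout libraries, against 14.7% and 9.97% in the control libraries. The share of each thus differed more between libraries of a genotype than between the genotypes.

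Cldn1 and Cldn2 stood apart in opposite directions. Cldn1, a claudin that tightens barriers, was at 18.2 and 8.73 CPM in the knockout libraries, against 29.2 and 24.6 CPM in the control libraries (log2 fold change −0.997, SE 0.38, 95% interval −1.89 to −0.099, unadjusted p = 0.0354, adjusted p = 1.0 in edgeR). Both knockout libraries lay below both controls, but they differed 2.09-fold from each other, and the fitted log2 value was −1.62 without knockout 1 and −0.56 without knockout 2. Cldn2, which forms a pore for small cations and water, was at 3.93 and 3.85 CPM in the knockout libraries, against 1.90 and 1.94 CPM in the control libraries (log2 fold change 1.02, SE 0.39, 95% interval 0.079 to 1.96, unadjusted p = 0.0383, adjusted p = 1.0 in edgeR). Its libraries nearly coincided within each genotype, and leaving out each library in turn gave 1.0 to 1.04. Cldn2 was a low transcript, with 130 and 108 counts in the knockout libraries and 66 and 68 counts in the control libraries. The level of Cldn1 was 12.4 and 5.17 TPM in the knockout libraries, against 19.3 and 16.3 TPM in the control libraries, and that of Cldn2 was 3.91 and 3.32 TPM in the knockout libraries, against 1.83 and 1.87 TPM in the control libraries.

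Sequences before the start of both genes are shown because these were the claudins with an unadjusted p under 0.05, from RefSeq promoters of build GRCm38.p6, in 5′ to 3′ order on the strand of the gene. Capitals mark the hexamer AGAACA or its reverse complement TGTTCT, the core letters of the element bound by the progesterone receptor and its relatives. The Cldn1 window (chr16:26371840-26372089, minus strand) holds no match to these letters, and the Cldn2 window (chrX:139800558-139800807, plus strand) holds 3, a pair of which overlap by 1 base. Both windows end at the base before the start given by RefSeq. Bases after that start were found in a GENCODE transcript of Cldn1 but in none of Cldn2, so the Cldn2 start rests on RefSeq alone.
Cldn1: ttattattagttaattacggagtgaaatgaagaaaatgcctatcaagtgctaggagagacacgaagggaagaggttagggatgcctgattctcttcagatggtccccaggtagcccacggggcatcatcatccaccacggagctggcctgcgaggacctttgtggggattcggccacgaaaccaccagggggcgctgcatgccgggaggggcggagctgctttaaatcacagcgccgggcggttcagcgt
Cldn2: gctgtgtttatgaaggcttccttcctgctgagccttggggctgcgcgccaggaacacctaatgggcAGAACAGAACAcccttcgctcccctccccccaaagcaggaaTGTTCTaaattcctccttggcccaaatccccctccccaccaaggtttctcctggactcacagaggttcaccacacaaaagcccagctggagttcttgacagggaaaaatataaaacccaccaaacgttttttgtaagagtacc
Across the promoter windows at hand, which run from 250 bases before to 50 bases after the start, 5 of 30 member genes (16.7%) held the hexamer on either strand, against 21.3% of all genes. A match is a run of letters and was not tested as a binding site.

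The most abundant claudins differed mainly within the genotypes. Cldn3 was at 501 and 329.9 CPM in the knockout libraries, against 321 and 579 CPM in the control libraries (log2 fold change −0.11, SE 0.38, 95% interval −1.01 to 0.78). The highest and the lowest libraries were both controls. Cldn4, whose gene is the direct neighbour of Cldn3 on chromosome 5, was even across libraries, at 77.96 and 72.8 CPM in the knockout libraries, against 78.3 and 80.96 CPM in the control libraries (log2 fold change −0.079, SE 0.20, 95% interval −0.55 to 0.39), with the knockout libraries narrowly the lower ones. Cldn7, which lies along the lateral membrane as well as in junctions, was at 103 and 196 CPM in the knockout libraries, against 119 and 122 CPM in the control libraries (log2 fold change 0.31, SE 0.32, 95% interval −0.46 to 1.08), and knockout 2 was the only library that stood apart. The ratio of Cldn3 to Cldn4 in TPM was 9.27 and 6.53 in the knockout libraries and 5.91 and 10.3 in the control libraries.

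The remaining claudins gave no separation, apart from Cldn22. Cldn23 was at 43.9 and 34.6 CPM in the knockout libraries, against 29.6 and 51.9 CPM in the control libraries, the same order of libraries as Cldn3. Cldn12, which was at 22.9 and 40.03 CPM in the knockout libraries, against 28.98 and 24.3 CPM in the control libraries, was highest in knockout 2, as was Cldn7. Cldn10, whose splice forms make cation or anion pores, was at 35.97 and 43.7 CPM in the knockout libraries, against 46.2 and 31.2 CPM in the control libraries. Their libraries overlapped. Cldn8 was at 14.8 and 9.94 CPM in the knockout libraries, against 13.1 and 12.5 CPM in the control libraries, and Cldn15, a cation pore of the intestine, at 7.10 and 9.55 CPM in the knockout libraries, against 10.2 and 8.52 CPM in the control libraries. Cldn22 was at 0.725 and 1.32 CPM in the knockout libraries, against 0.432 and 0.712 CPM in the control libraries (log2 fold change 0.83, SE 0.62, 95% interval −0.65 to 2.30). Knockout 1 only just exceeded control 2, and the interval was the widest of all members. An exon of Wwc2 overlaps it on the opposite strand in the reference annotation. Cldn6, a claudin of embryonic epithelia, had 1 and 0 counts in the knockout libraries and 0 and 16 counts in the control libraries.

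**Figure D2:**
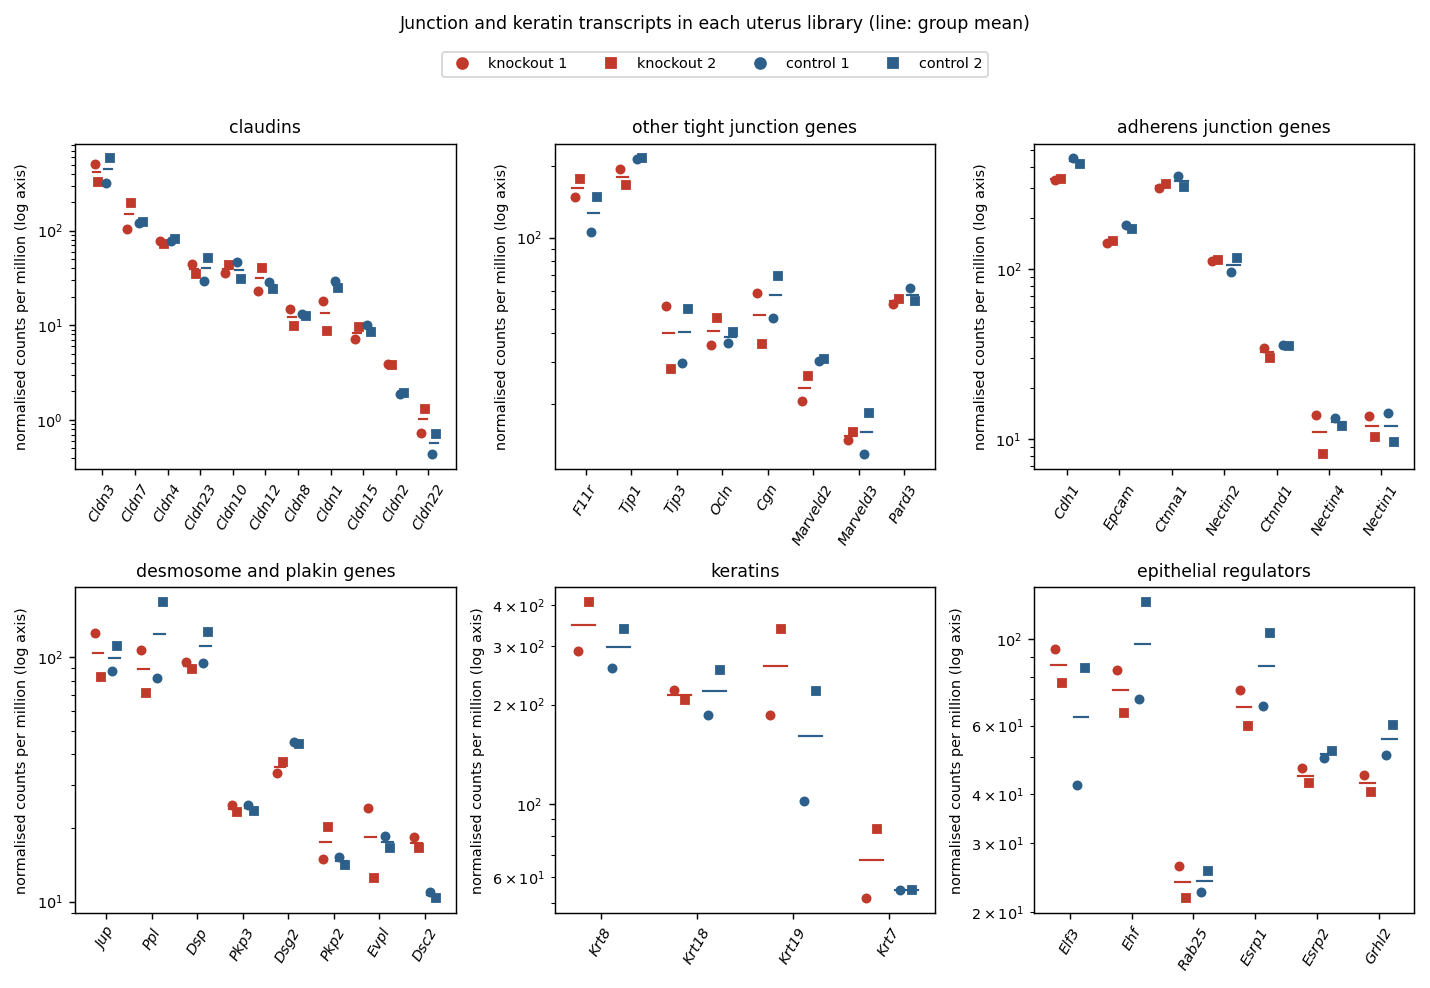
Normalised CPM (log axes) of the 44 tested genes in each library, by class and in order of mean TPM, with knockout libraries left of control libraries and a line at each group mean. Cldn1 and Cldn2 separate in opposite directions among the claudins, and Krt19 spreads most among the keratins.

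Among the other tight junction genes, the junctional adhesion molecule F11r averaged 169 TPM and the scaffold gene Tjp1, which encodes ZO-1, 79.7 TPM. Tjp3, Ocln, Cgn, Marveld2, Marveld3 and Pard3 followed at 34.2, 29.2, 27.5, 25.1, 14.4 and 11.8 TPM. None of the 8 had an unadjusted p under 0.05, and 6 lay below 0 on the log2 fold change scale (median −0.079). F11r was at 148 and 176 CPM in the knockout libraries, against 105 and 148 CPM in the control libraries (log2 fold change 0.36, SE 0.26, 95% interval −0.26 to 0.97), so that knockout 1 and control 2 nearly touched. Tjp1 was at 193 and 166 CPM in the knockout libraries, against 214 and 215 CPM in the control libraries (log2 fold change −0.25, SE 0.23, 95% interval −0.79 to 0.29), with both knockout libraries below the controls.

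Marveld2, which encodes tricellulin, the protein of the corners where cells of an epithelium meet, gave 20.6 and 26.3 CPM in the knockout libraries, against 30.3 and 31.1 CPM in the control libraries (log2 fold change −0.39, SE 0.24, 95% interval −0.96 to 0.19). Ocln, the gene of occludin and the direct neighbour of Marveld2 on chromosome 13, was at 35.4 and 46.1 CPM in the knockout libraries, against 36.04 and 40.4 CPM in the control libraries (log2 fold change 0.091, SE 0.23, 95% interval −0.46 to 0.64). The ratio of Ocln to Marveld2 in TPM was 1.37 and 1.40 in the knockout libraries, against 0.954 and 1.04 in the control libraries. The ratio did not overlap between genotypes, and it was picked out after its values were seen. The Marveld2 window (chr13:100616972-100617221, minus strand, RefSeq, GRCm38.p6) is shown with the same hexamer in capitals, found at 2 places. Marveld2 is among the 5 of 30 member genes (16.7%) that held the hexamer, against 21.3% of all genes. It had no unadjusted p under 0.05, and the matches were not tested as binding sites.
Marveld2: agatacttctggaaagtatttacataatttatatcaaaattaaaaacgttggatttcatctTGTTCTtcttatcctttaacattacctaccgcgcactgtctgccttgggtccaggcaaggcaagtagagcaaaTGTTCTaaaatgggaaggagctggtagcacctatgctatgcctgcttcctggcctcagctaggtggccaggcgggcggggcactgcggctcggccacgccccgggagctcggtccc

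Scaffold and polarity genes varied from library to library. Tjp3, which encodes ZO-3, was at 51.7 and 28.1 CPM in the knockout libraries, against 29.9 and 50.3 CPM in the control libraries (log2 fold change −0.0082, SE 0.37, 95% interval −0.90 to 0.88). Cgn, the gene of the cytoplasmic plaque protein cingulin, was at 58.7 and 35.6 CPM in the knockout libraries, against 45.8 and 69.3 CPM in the control libraries (log2 fold change −0.29, SE 0.32, 95% interval −1.05 to 0.48). In both, knockout 1 and control 2 were the high libraries and knockout 2 and control 1 the low ones. The Tjp3 exons overlap those of Apba3 on the opposite strand, and an overlap of exons with another gene holds for 15 of the 48 members in the reference annotation, 14 of them on the opposite strand. Whether counting used strand is not given in the sources used here, so these genes may share reads. Marveld3, a relative of occludin, was at 14.1 and 15.3 CPM in the knockout libraries, against 12.3 and 18.4 CPM in the control libraries, and Pard3, a polarity scaffold, was at 52.7 and 55.4 CPM in the knockout libraries, against 61.2 and 54.1 CPM in the control libraries. Both had overlapping libraries.

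Adherens junction genes were the class whose summed level did not overlap between the genotypes, with 5 of 7 genes below 0 on the log2 fold change scale (median −0.134) and 0 of 7 under an unadjusted p of 0.05. The median was −0.252 without control 2, −0.233 without knockout 1 and −0.036 without knockout 2. Summed over the 7 genes, the level was 751.5 and 663 TPM in the knockout libraries, against 877 and 833 TPM in the control libraries. Taken singly in TPM, only Cdh1 and Epcam did not overlap, and the other genes of the class did. How often a sum of genes separates in this way was not counted, so the sum does not set this class apart. Cdh1, which encodes E-cadherin, was at 333 and 341 CPM in the knockout libraries, against 448 and 416 CPM in the control libraries (log2 fold change −0.36, SE 0.25, 95% interval −0.95 to 0.23). Epcam, whose product binds claudin-7, gave 143 and 148 CPM in the knockout libraries, against 181 and 173 CPM in the control libraries (log2 fold change −0.29, SE 0.21, 95% interval −0.79 to 0.22). Both genes were lower in each knockout library than in each control, by less than the test could separate from 0. The gland and leukocyte markers, summed in TPM, were also lower in both knockout libraries, with values and limits given above. The part of these markers in the adherens values was not tested.

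The catenins and nectins lay nearer to equality. Ctnna1, the link from the cadherin complex to actin, was at 299.9 and 317 CPM in the knockout libraries, against 355 and 304 CPM in the control libraries (log2 fold change −0.094, SE 0.25, 95% interval −0.68 to 0.49). Ctnnd1, the gene of p120-catenin, which keeps cadherin at the membrane, was at 34.6 and 30.3 CPM in the knockout libraries, against 36.04 and 35.2 CPM in the control libraries (log2 fold change −0.13, SE 0.22, 95% interval −0.65 to 0.38), a narrow gap. For Ctnna1 control 2 lay between the knockout libraries. Nectins are immunoglobulin-like adhesion molecules that join at the same belt. Nectin2 was the most abundant of them at 98.4 TPM, with 112 and 113 CPM in the knockout libraries, against 95.96 and 116 CPM in the control libraries (log2 fold change 0.089, SE 0.21, 95% interval −0.42 to 0.60). Nectin4 was at 14.00 and 8.16 CPM in the knockout libraries, against 13.3 and 12.03 CPM in the control libraries, lowest in knockout 2. Nectin1 was at 13.7 and 10.4 CPM in the knockout libraries, against 14.4 and 9.69 CPM in the control libraries, and replicate 1 was the higher library in either genotype.

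Desmosome and plakin genes split evenly, 4 of 8 below 0 on the log2 fold change scale (median 0.027), and held the smallest unadjusted p of the members. Dsc2, a desmosomal cadherin, was at 18.3 and 16.5 CPM in the knockout libraries, against 10.9 and 10.3 CPM in the control libraries (log2 fold change 0.71, SE 0.26, 95% interval 0.083 to 1.34, unadjusted p = 0.0325, adjusted p = 1.0 in edgeR). Both knockout libraries were above both controls, and leaving out each library in turn gave log2 values of 0.64 to 0.79. Dsg2, the partner cadherin of the other desmosomal family, was at 33.7 and 37.3 CPM in the knockout libraries, against 44.99 and 44.3 CPM in the control libraries (log2 fold change −0.33, SE 0.21, 95% interval −0.82 to 0.16), so that the knockout libraries were the lower ones. The ratio of Dsc2 to Dsg2 in TPM was 0.851 and 0.693 in the knockout libraries, against 0.380 and 0.365 in the control libraries. This ratio was also chosen after its values were seen, and it has no test.

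The libraries of the genotypes overlapped in CPM for every plaque and plakin gene of this class. Jup, which encodes plakoglobin, was the most abundant by TPM (50.2), at 125 and 83.3 CPM in the knockout libraries, against 87.4 and 112 CPM in the control libraries (log2 fold change 0.069, SE 0.27, 95% interval −0.58 to 0.72). Dsp, the gene of desmoplakin, which anchors keratin filaments, was at 95.6 and 89.2 CPM in the knockout libraries, against 95.01 and 127 CPM in the control libraries (log2 fold change −0.26, SE 0.23, 95% interval −0.81 to 0.29). Ppl, a plakin of the desmosome and the cornified envelope, was at 108 and 71.4 CPM in the knockout libraries, against 82.1 and 168 CPM in the control libraries (log2 fold change −0.48, SE 0.38, 95% interval −1.38 to 0.42). Control 2 was the highest library for Dsp and Ppl, and the Ppl controls differed 2.05-fold. Its envelope partner Evpl was at 24.2 and 12.5 CPM in the knockout libraries, against 18.5 and 16.6 CPM in the control libraries and highest in knockout 1. The plakophilins link desmosomal cadherins to desmoplakin. Pkp3 was even, at 24.8 and 23.2 CPM in the knockout libraries, against 24.9 and 23.5 CPM in the control libraries, and Pkp2 was at 14.9 and 20.2 CPM in the knockout libraries, against 15.3 and 14.1 CPM in the control libraries, highest in knockout 2. In TPM Pkp2 did not overlap, at 9.17 and 10.8 TPM in the knockout libraries, against 9.13 and 8.46 TPM in the control libraries.

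Keratins of simple epithelium were among the most abundant members, and 3 of the 4 tested lay above 0 on the log2 fold change scale (median 0.265), all with overlapping libraries. Without knockout 2 the median of the keratins was −0.014, without knockout 1 it was 0.609 and without control 2 it was 0.432. Krt8 and Krt18, whose products pair to form a filament and whose genes are direct neighbours on chromosome 15, averaged 516 and 475 TPM. Krt19 averaged 352 TPM and Krt7 27.1 TPM. Krt8 was at 290.2 and 408 CPM in the knockout libraries, against 259 and 338 CPM in the control libraries (log2 fold change 0.23, SE 0.29, 95% interval −0.47 to 0.92). Krt18 was at 221 and 207 CPM in the knockout libraries, against 187 and 254 CPM in the control libraries (log2 fold change −0.044, SE 0.25, 95% interval −0.65 to 0.56). The ratio of Krt8 to Krt18 in TPM was 0.965 and 1.45 in the knockout libraries and 1.02 and 0.976 in the control libraries, near equality in every library except knockout 2.

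Krt19 had the widest spread of the keratins, at 185 and 339 CPM in the knockout libraries, against 102 and 219 CPM in the control libraries (log2 fold change 0.71, SE 0.44, 95% interval −0.34 to 1.75). Its libraries overlapped, the controls differed 2.14-fold, and the fitted log2 value ran from 0.21 to 1.36 when each library was left out. Krt19 made up 24.4% and 33.4% of the summed keratin TPM in the knockout libraries, against 17.0% and 24.9% in the control libraries, and these shares also overlapped. Krt7 was at 51.9 and 83.9 CPM in the knockout libraries, against 55.1 and 55.03 CPM in the control libraries (log2 fold change 0.30, SE 0.27, 95% interval −0.34 to 0.95), with knockout 2 alone above the others. The summed smooth muscle and mesothelium markers were also higher in knockout 2 than in knockout 1. Between the controls the order differed. Both sums were higher in control 1, whereas Krt8, Krt18 and Krt19 were higher in control 2 and Krt7 was even. The mesothelium markers summed to 87.7 and 126 TPM in the knockout libraries, against 125 and 92.2 TPM in the control libraries, and the part of either list in the keratin values was not tested.

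The other 3 keratins among the members, Krt5, Krt13 and Krt15, belong to stratified epithelium and had few counts. Krt5 had 0 and 2 counts in the knockout libraries and 0 and 11 counts in the control libraries. Krt13 had 7 and 15 counts in the knockout libraries and 0 and 9 counts in the control libraries, and Krt15 had 6 and 6 counts in the knockout libraries and 8 and 2 counts in the control libraries. A floor of 3 counts corresponds to 0.0907 and 0.107 CPM in the knockout libraries and 0.0863 and 0.0855 CPM in the control libraries. Krt14, the usual partner of Krt5, had 4 and 10 counts in the knockout libraries and 12 and 110 counts in the control libraries, so that control 2 held most of it. Of 12 markers of stratified squamous epithelium, 7 were too low for the TPM table, but not all were low. Krt10, a keratin of the upper layers of skin, was at 9.31 and 10.6 CPM in the knockout libraries, against 7.74 and 9.18 CPM in the control libraries, and Sbsn, a gene of the same layers, at 13.5 and 6.10 CPM in the knockout libraries, against 9.12 and 11.3 CPM in the control libraries. Sprr1a, a gene of the cornified envelope, was at 3.72 and 1.75 CPM in the knockout libraries, against 1.18 and 0.427 CPM in the control libraries (log2 fold change 1.76, 95% interval 0.19 to 3.34, adjusted p = 1.0 in edgeR). Of the 6 markers tested, 3 were higher in both knockout libraries without overlap (Krt1, Krt10 and Sprr1a) and 0 were lower. Over all genes tested, these shares were 12.2% higher and 13.1% lower. Krt1 had 16 and 14 counts in the knockout libraries and 9 and 5 counts in the control libraries, and the Krt10 gap was narrow. The other 3 tested markers had fitted log2 fold changes below 0. The summed list was at 43.2 and 26.1 TPM in the knockout libraries, against 25.5 and 32.3 TPM in the control libraries, and its part in the members' values was not tested.

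**Figure D3:**
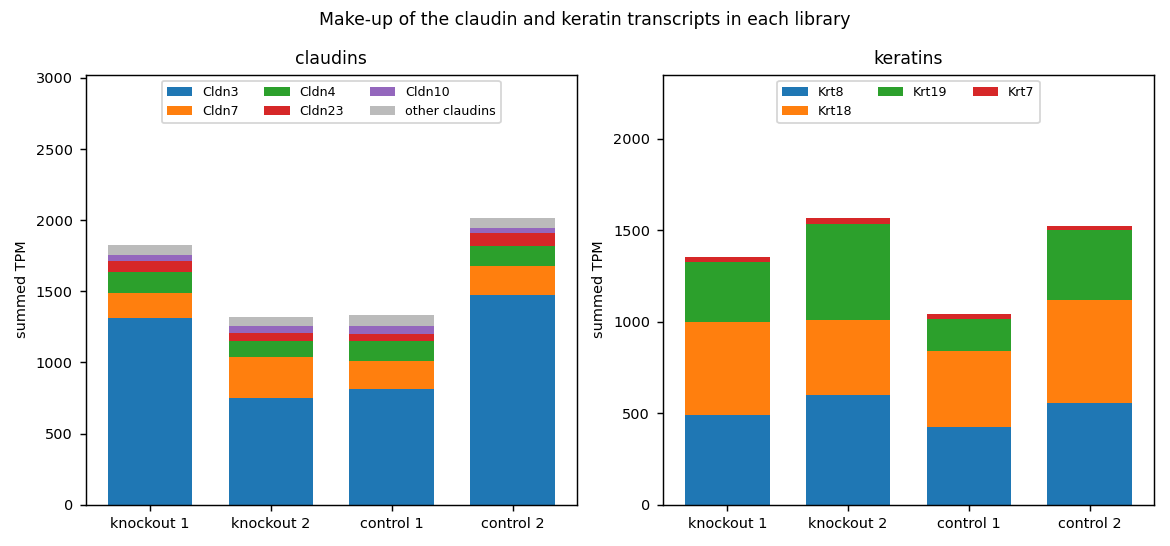
Summed TPM of the claudins (left) and keratins (right) in each library, split by gene. Cldn3 is the largest part of the claudin sum in every library, and Krt19 is the part of the keratin sum that differs most, from 17.0% in control 1 to 33.4% in knockout 2.

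The 6 epithelial regulators shared the order of libraries within each genotype, though not across all 4 libraries. Elf3 and Ehf, transcription factors of the ETS family, averaged 106 and 48.6 TPM. Rab25, a small GTPase of apical recycling, averaged 45.2 TPM. The splicing factor genes Esrp1 and Esrp2, which set epithelial splice forms, averaged 38.3 and 34.6 TPM, and Grhl2, a transcription factor known to activate E-cadherin and claudin genes, 17.96 TPM. Of the 6, 5 lay below 0 on the log2 fold change scale (median −0.265) and 0 had an unadjusted p under 0.05. All 6 were higher in knockout 1 than in knockout 2 and higher in control 2 than in control 1.

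Grhl2 was at 44.8 and 40.6 CPM in the knockout libraries, against 50.5 and 60.1 CPM in the control libraries (log2 fold change −0.37, SE 0.21, 95% interval −0.88 to 0.14), and Esrp2 at 46.6 and 42.7 CPM in the knockout libraries, against 49.5 and 51.8 CPM in the control libraries (log2 fold change −0.18, SE 0.20, 95% interval −0.67 to 0.30). In both genes the knockout libraries were the lower ones. Elf3 was at 94.1 and 77.3 CPM in the knockout libraries, against 42.3 and 84.1 CPM in the control libraries (log2 fold change 0.44, SE 0.34, 95% interval −0.37 to 1.25). The Elf3 value of control 1 was the lowest of the 4 libraries, and the fitted log2 value ran from 0.041 to 1.02 when each library was left out. Ehf was at 83.3 and 64.8 CPM in the knockout libraries, against 70.1 and 124 CPM in the control libraries (log2 fold change −0.39, SE 0.31, 95% interval −1.14 to 0.35), and Esrp1 at 74.2 and 60.02 CPM in the knockout libraries, against 67.4 and 103 CPM in the control libraries (log2 fold change −0.35, SE 0.27, 95% interval −0.99 to 0.30). Control 2 was highest in Ehf and Esrp1. Rab25 was at 26.2 and 21.7 CPM in the knockout libraries, against 22.5 and 25.5 CPM in the control libraries (log2 fold change −0.0036, SE 0.25, 95% interval −0.59 to 0.58), and its libraries overlapped.

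The Grainyhead-like motif, searched as AACNGGTT and its reverse complement AACCNGTT, was found in the promoter windows of 2 of 30 member genes (6.67%), Cgn and Rab25, against 2.35% of all genes. These windows (Cgn, chr3:94786483-94786732, and Rab25, chr3:88548280-88548529, both minus strand, RefSeq, GRCm38.p6) are shown because Grhl2 is itself one of the genes described. Capitals mark the motif, and also the hexamer TGTTCT in Rab25.
Cgn: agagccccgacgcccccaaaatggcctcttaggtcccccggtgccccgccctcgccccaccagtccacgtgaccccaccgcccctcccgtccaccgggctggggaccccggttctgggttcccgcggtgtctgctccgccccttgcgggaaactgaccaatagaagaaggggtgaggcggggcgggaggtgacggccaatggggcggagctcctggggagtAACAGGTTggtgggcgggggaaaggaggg
Rab25: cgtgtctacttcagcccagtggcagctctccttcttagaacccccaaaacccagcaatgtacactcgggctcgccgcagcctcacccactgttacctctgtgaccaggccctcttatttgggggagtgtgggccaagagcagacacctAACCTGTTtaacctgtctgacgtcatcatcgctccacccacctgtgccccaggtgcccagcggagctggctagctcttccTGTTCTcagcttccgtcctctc
The ETS core AGGAAG or CTTCCT was found in 11 of the 30 (36.7%), against 38.4% of all genes. Neither Cgn nor Rab25 separated between the genotypes.

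The order of libraries within each genotype was counted as well. Knockout 1 was above knockout 2 while control 2 was above control 1 in 17 of 44 members (38.6%), against 35% of all genes tested, a share near that background. The log2 ratios of replicate 1 to replicate 2 in the knockout and control libraries had a Pearson r of −0.088 across the 44 members and −0.451 across all genes tested, and genes are not independent replicates. Besides the 6 regulators these included Cldn3, Cldn23, Tjp3, Cgn, Jup and Ppl. Summed over the regulators, the level was 333 and 239 TPM in the knockout libraries, against 234 and 355 TPM in the control libraries. The luminal markers had the same order within each genotype and the smooth muscle markers the opposite one, with values given above, and their part in the members' values was not tested. Of the adherens junction genes, 0 of 7 followed it. Krt8, Krt19, Cldn7, Cldn22, F11r, Ocln, Marveld2, Marveld3 and Nectin2 were instead higher in replicate 2 of either genotype. The share of all genes with that order was not counted.

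**Figure D4:**
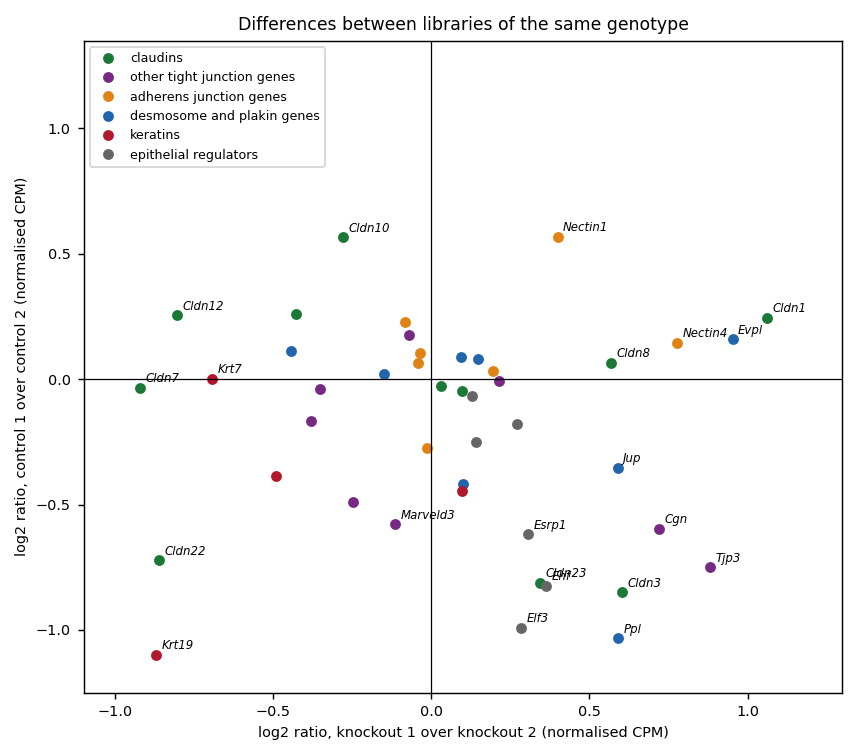
Log2 ratio of replicate 1 to replicate 2 in knockout libraries (horizontal) and in control libraries (vertical) for the 44 tested genes, from normalised CPM, coloured by class. All 6 epithelial regulators fall at the lower right, with Cldn3, Tjp3, Cgn and Ppl, whereas Krt19 lies in the lower left.

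**Figure D5:**
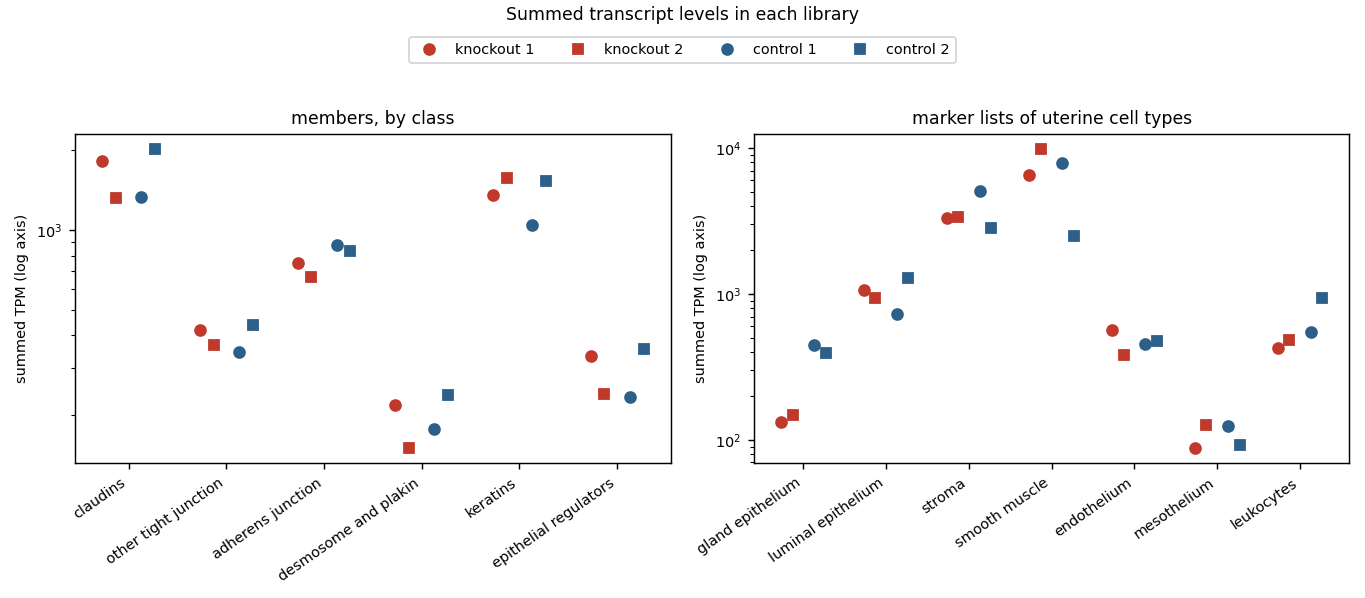
Summed TPM (log axes) of each class of the members (left) and of marker lists of uterine cell types (right) in each library. Among the classes only the adherens genes, at 751.5 and 663 TPM in knockout libraries against 877 and 833 TPM in control libraries, do not overlap between the genotypes, and among the marker lists only the gland and leukocyte lists. Lyz2, the largest part of the leukocyte sum, overlaps in CPM.

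Other junction, polarity and keratin genes, listed from textbook knowledge, were set beside the members. Of 59 listed genes 44 were tested, 0 passed after adjustment over all genes, and 1 had an unadjusted p under 0.05. The median log2 fold change was −0.094, with 29 of 44 below 0, and libraries did not overlap in 7 lower and 4 higher genes (25.0%, against 25.3% of all genes). The most abundant of them were Ctnnb1, which encodes beta-catenin, and Jam2, a junctional adhesion molecule of endothelium and stroma. Ctnnb1 was at 837 and 872 CPM in the knockout libraries and 869 and 784 CPM in the control libraries, and Jam2 at 343 and 428 CPM in the knockout libraries and 427 and 482 CPM in the control libraries. The gene under 0.05 was Krt14, described above, whose counts came mainly from control 2. Krt23, an acidic keratin, was at 25.0 and 18.4 CPM in the knockout libraries, against 32.9 and 29.3 CPM in the control libraries (log2 fold change −0.52), and Krt17 at 0.544 and 0.820 CPM in the knockout libraries, against 2.82 and 0.855 CPM in the control libraries. Neither Krt23 nor Krt17 passed.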

How the data were processed

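Whole-uterus RNA of 2 knockout and 2 control libraries was measured by RNA-seq. Per the submitters' processing notes, Trimmomatic, STAR and featureCounts were used with build GRCm39, in an order and with versions not given in the sources used here. The deposited count table holds whole-number counts for 57186 genes. The deposited TPM table holds 19991 genes, each with a total count of at least 51, and its TPM values equal the authors' counts over gene length, rescaled.

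Library totals were 31901278 and 29932153 counts for knockout and 35149834 and 33843256 counts for control, and no pair of libraries agreed within sampling noise. Counts were scaled by trimmed mean of M values, genes were filtered by filterByExpr (minimum count 10), and 20950 genes were tested with edgeR 4.0.16 (quasi-likelihood test, R 4.3.3), with Benjamini-Hochberg adjustment at 0.05. The biological coefficient of variation was 0.309, and the residual degrees of freedom were 2. The floor of 3 counts covers counting error only.

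Alternatives were RLE factors, DESeq2 1.42.0, limma-voom 3.58.1, other filters, a replicate block and leaving out each library. The members and lists were chosen with earlier results of these data known. Library values are given for each member, and a fold change at least for those with an unadjusted p under 0.05, the 3 smallest p or the 3 highest TPM of a class. Of other lists, up to 3 genes of smallest p and 2 of highest TPM are named, and Foxa2 besides. Promoter windows of 30 members came from RefSeq (GRCm38.p6), neighbours from the order of protein-coding genes in RefSeq, and exon overlaps from GENCODE on GRCm38. No count or promoter coordinate was converted between builds.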

Additional observations from a re-analysis of the deposited data

How the results depend on the processing

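No member passed the adjusted threshold under any of the 11 other settings (0 of the members tested each time), while the count over all genes, 1 in the reported test, was 85 with DESeq2, 0 with limma-voom, 54 with no filter on low counts, 0 with a filter at a mean of 1 CPM, and 16 to 49 when each library was left out. At an unadjusted p under 0.05, the counts of 1 lower and 2 higher members were the same with RLE factors, DESeq2, limma-voom and the other filters. The median log2 fold change of the members, −0.052, was 0.078 without control 2 and −0.175 without knockout 1. The count of members whose libraries did not overlap, 14, was 27 to 33 when 1 library was left out. That compares 1 library with 2, where libraries fail to overlap more easily. The share over all genes was not counted there, so the larger counts do not show a wider difference. The lone library is assumed to vary like the others. Log2 fold changes that changed sign when a library was left out ranged as follows: Cldn3 −0.47 to 0.37, Cldn7 −0.22 to 0.70, Cldn8 −0.36 to 0.21, Cldn10 −0.21 to 0.37, Cldn12 −0.21 to 0.59, Cldn15 −0.39 to 0.031, Cldn23 −0.39 to 0.41, Ocln −0.11 to 0.27. Further ranges were Tjp3 −0.51 to 0.41, Cgn −0.69 to 0.041, Marveld3 −0.31 to 0.25, Pard3 −0.18 to 0.011, Ctnna1 −0.20 to 0.038, Nectin1 −0.25 to 0.33, Nectin2 −0.028 to 0.23, Nectin4 −0.63 to 0.15, Pkp3 −0.059 to 0.047. The last were Jup −0.26 to 0.34, Ppl −0.90 to 0.12, Evpl −0.49 to 0.47, Krt7 −0.083 to 0.61, Krt8 −0.036 to 0.46, Krt18 −0.24 to 0.20, Ehf −0.73 to 0.078, Rab25 −0.14 to 0.13. Those that kept their sign but moved by over 1.5 times were Cldn1 −1.62 to −0.56, Cldn22 0.34 to 1.23, Cldn4 −0.13 to −0.027, Ctnnd1 −0.23 to −0.036, Dsp −0.44 to −0.041, Elf3 0.041 to 1.02, Esrp1 −0.61 to −0.0073, Esrp2 −0.24 to −0.12, F11r 0.15 to 0.62, Grhl2 −0.48 to −0.24, Krt19 0.21 to 1.36, Marveld2 −0.57 to −0.22, Pkp2 0.019 to 0.46, Tjp1 −0.36 to −0.15. Nectin1 was −0.00017 with no filter on low counts and Rab25 3.2e-05 with DESeq2. The cause of these moves was not tested.

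The labels do not say that a replicate number marks a shared animal or batch. Over 17269 genes the log2 ratio of replicate 1 to replicate 2 correlated at −0.477 between the genotypes. With the replicate number as a block, 0 members and 32 genes of all passed, and Evpl was −0.0094. In that edgeR fit 1 lower and 0 higher members had an unadjusted p under 0.05, against 2.04% of all genes tested. With the pairing crossed, an alternative chosen after seeing the data, 0 members and 37 genes passed, and Evpl was −0.0054. In that edgeR fit 2 lower and 3 higher members had an unadjusted p under 0.05, against 7.74% of all genes tested. With 2 libraries a group, SE of 0.198 to 0.619 log2 units limit what could be detected.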
